A study of Tribolium castaneum with 17 samples.

Results

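Embryos of the red flour beetle *Tribolium castaneum* at 6-11 hr (libraries S4, S5 and S6) were compared with embryos at 0-5 hr (libraries S1, S2 and S3). The 6 libraries, of 17 in the series, were chosen by their labels, and the other 11 hold carcass, ovary and testis of adult beetles. Both embryo stages were wild type animals of the GA2 strain, reared at 25 °C. The adults were dissected 4 days after eclosion, and the parents of the eggs were older. The study describes the ovaries as those of virgin females. Each library was made from poly(A) RNA of a pool of 80 to 100 whole embryos, in 3 independent biological replicates per stage, and each pool spans a 5 hr window of ages. Of the 12302 gene models of the deposited table, 12152 were tested in the comparison, which was designed to find early zygotic transcripts. Values are CPM, the read counts of a gene model scaled to a fixed library total and adjusted so that libraries can be compared with each other.

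An insect egg starts development with messenger RNA that the mother loads into it during oogenesis. Over the maternal-to-zygotic transition these maternal transcripts are degraded in part and the embryo begins to transcribe its own genome. A fall in the level of a transcript and the appearance of a transcript are the 2 sides of this transition that poly(A) RNA of whole embryos can show. In RNA of pooled whole embryos, fewer cells of a type and less RNA per cell cannot be told apart. CPM are relative to each library, so a transcript of steady amount can fall in CPM when other transcripts rise.

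Before the comparison, the libraries were compared with each other. Reads in gene models numbered 20221563 to 27244356 in the 6-11 hr libraries, of which S6 had the fewest, and 29041836 to 31126463 in the 0-5 hr libraries, so that 1 read was worth 0.0285 to 0.0465 CPM. S4 and S5 were alike, with 19 gene models at least 2-fold apart on log2(CPM + 1), the base 2 logarithm of CPM after adding 1. S6 differed by that much from S4 in 825 gene models and from S5 in 898, against 563 to 711 from the 0-5 hr libraries. Among the 0-5 hr libraries S1 and S3 were alike, with 31 gene models 2-fold apart, and S2 differed from S1 in 187 and from S3 in 185. The chi-square of read numbers per gene model had a median of 1.32 and a mean of 14.4 between S4 and S5, and a median of 1.58 and a mean of 11.9 between S1 and S3. A minority of gene models thus carried most of the difference within these pairs, and each library was counted as the separate replicate that its label gives. S6 and, less far, S2 therefore stood apart from their groups, and the results below are given for each library.

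Between the stages, 247 gene models were higher in 6-11 hr embryos and 256 were lower, out of 12152 that reached 5 CPM in at least 3 of the 17 libraries. These are 2.03% and 2.11% of the gene models tested. The test was run in limma on the log2 scale above, in a fit of the 17 libraries, and a gene model was called at a 2-fold change and a Benjamini-Hochberg adjusted p under 0.01. Over all gene models tested the median log2 fold change was 0.14. The increases had log2 fold changes of 1.01 to 5.19 (median 1.73) and the decreases -1.004 to -2.80 (median -1.26). At least 4-fold changes made up 81 of the increases and 10 of the decreases. With CPM from library totals alone, the counts were 192 higher and 299 lower, so that increases were 39.1% of the calls, against 49.1% with the deposited scaling. The study, which used edgeR at the same limits, reports more increases than the 247 here. On reads recovered from the CPM, edgeR's quasi-likelihood test gave 754 higher and 281 lower, so the near balance holds for the limma test only.

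**Figure D1:**
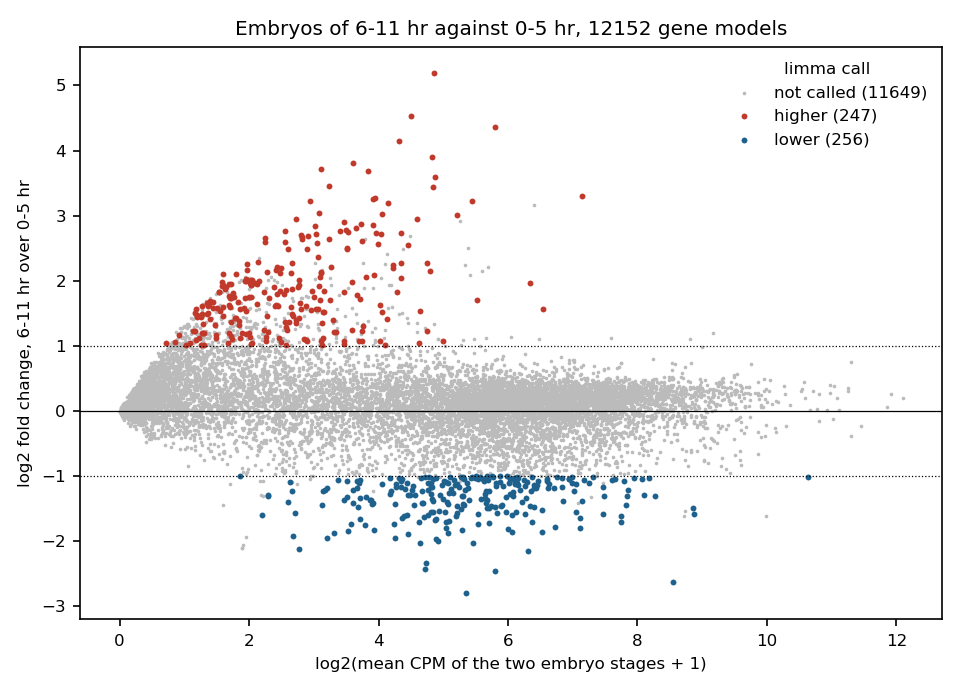
Log2 fold change of 6-11 hr over 0-5 hr embryos (vertical axis) against log2 of the mean CPM of the stages plus 1 (horizontal axis), 1 point per gene model tested, with red for the 247 called higher, blue for the 256 called lower and grey for the rest. Dotted lines mark a 2-fold change. The increases spread over low mean levels with the largest at 5.19, and the decreases start at middle levels with the largest at -2.80.

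The increases and the decreases lay at different levels of the 0-5 hr embryo. The increases had a median of 8.40 CPM at 6-11 hr and 1.16 CPM at 0-5 hr, and 115 of the 247 were under 1 CPM at 0-5 hr. The decreases had a median of 23.4 CPM at 6-11 hr and 57.1 CPM at 0-5 hr, and 255 of the 256 were at 5 CPM or more at 0-5 hr. Of 7797 gene models at 5 CPM or more in every 0-5 hr library, 253 (3.24%) fell and 20 (0.257%) rose. Of 4011 gene models under 5 CPM in every 0-5 hr library, 209 (5.21%) rose and 1 fell. Because 1 is added to each CPM, a gene model under 1 CPM at 0-5 hr cannot be called lower, so the level of the decreases is in part set by the scale. Of the 7797, 7654 were still at 5 CPM or more in all 3 libraries of 6-11 hr.

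The decreases were shared by all 3 libraries of 6-11 hr. In each of the 256, every 6-11 hr library was below every 0-5 hr library, an order found in 14.6% of all gene models tested, and the call on these same libraries favors that order. Their summed level was 10839, 10892 and 8462 CPM in S4, S5 and S6, against 25341, 24240 and 24964 CPM in S1, S2 and S3. S6 was the lowest of the 3 libraries in 217 of the 256. The gene models called lower thus took 0.900% to 1.19% of the reads at 6-11 hr, against 2.75% to 2.86% at 0-5 hr.

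The 12 largest decreases had log2 fold changes of -2.80 to -1.96, and each was called under every other test, scaling, filter and set of libraries that was tried. The largest was TC001195, at 9.46, 10.02 and 8.13 CPM in S4, S5 and S6, against 73.5, 64.4 and 72.3 CPM in S1, S2 and S3 (log2 fold change -2.80, SE, the standard error, 0.25, limma adjusted p = 3.79e-06). Its 6-11 hr level was 13.1% of the 0-5 hr mean. TC009494 was at 103, 104 and 99.6 CPM in S4, S5 and S6, against 664, 577 and 684 CPM in S1, S2 and S3 (-2.64, SE 0.12, limma adjusted p = 1.42e-08). Here the 3 libraries of 6-11 hr lay close together, S6 included, and 15.9% of the 0-5 hr mean was left. TC011044 was alike in this, at 7.50, 7.69 and 8.09 CPM in S4, S5 and S6, against 47.6, 38.3 and 44.4 CPM in S1, S2 and S3 (-2.34, SE 0.13, limma adjusted p = 1.4e-07). TC002384 fell to 1.71, 1.52 and 1.44 CPM in S4, S5 and S6, against 10.6, 10.04 and 9.79 CPM in S1, S2 and S3 (-2.13, SE 0.21, limma adjusted p = 6.81e-06). In adults its mean was 10.2 CPM in ovary and at most 1.62 CPM in testis and the carcasses.

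In other large decreases S6 lay below S4 and S5. TC030657 was at 19.0, 22.0 and 9.67 CPM in S4, S5 and S6, against 94.8, 96.7 and 87.5 CPM in S1, S2 and S3 (log2 fold change -2.47, limma adjusted p = 1.9e-05). The next gene model in the annotation, which has no TC identifier, was at 8.02, 10.9 and 4.04 CPM in S4, S5 and S6, against 45.6, 44.0 and 39.5 CPM in S1, S2 and S3 (-2.43, limma adjusted p = 4.15e-05). The 2 gene models follow each other and may share reads, so they are uncertain as separate genes. TC016226, at 31.1, 30.9 and 23.5 CPM in S4, S5 and S6, against 127, 133 and 126 CPM in S1, S2 and S3, showed the same order (-2.15, limma adjusted p = 3.3e-07). The remaining 5 of the 12, TC015211, TC003235, TC006706, TC016220 and TC010561, kept 20.8% to 24.9% of their 0-5 hr means, and S6 was the lowest library in each of them. The files give no symbols for these 12, and no role is stated for them.

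**Figure D2:**
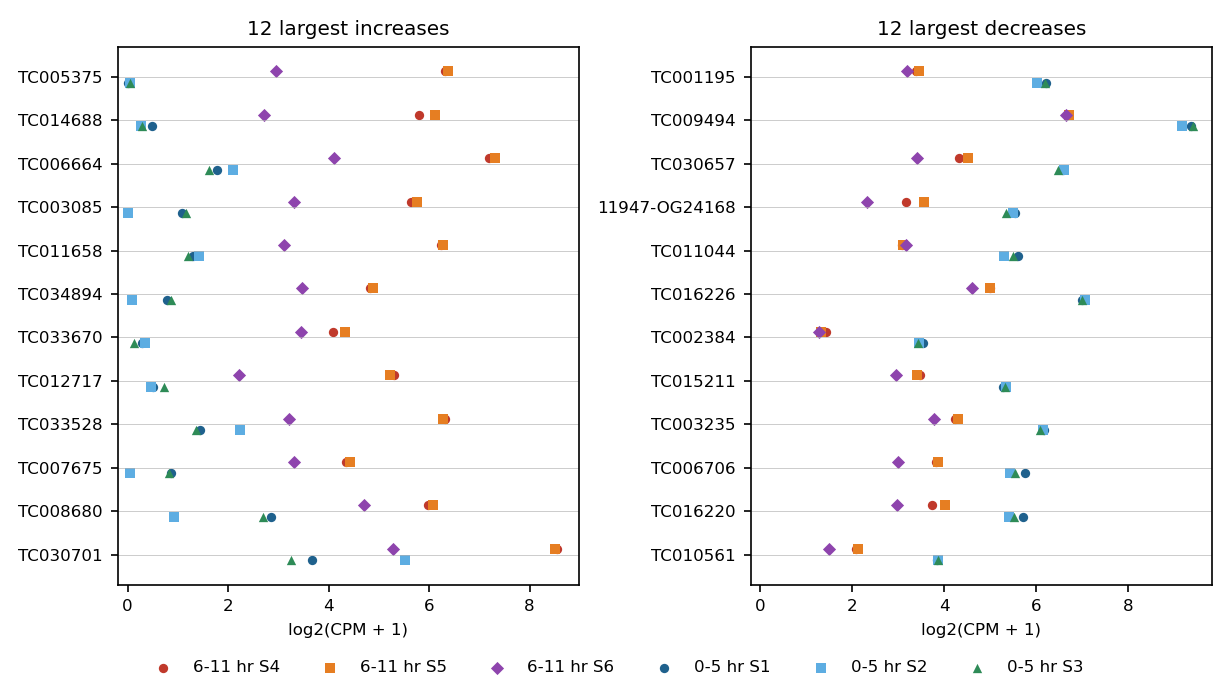
The level of the 12 largest increases (left) and 12 largest decreases (right) in each embryo library, as log2(CPM + 1), with S4, S5 and S6 of 6-11 hr in red, orange and purple and S1, S2 and S3 of 0-5 hr in dark blue, light blue and green. In the increases S6 lies between S4 and S5 and the 0-5 hr libraries, except that S2 is above S6 in TC030701, while in the decreases all 3 libraries of 6-11 hr lie below the 0-5 hr libraries, S6 close to S4 and S5 in TC009494 (103, 104 and 99.6 CPM in S4, S5 and S6) and below them in TC030657 (19.0, 22.0 and 9.67 CPM).

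The increases were carried by S4 and S5. Their summed level was 4747, 4933 and 1413 CPM in S4, S5 and S6, against 640, 597 and 607 CPM in S1, S2 and S3. The medians over the 247 were 10.8, 10.9 and 2.93 CPM in S4, S5 and S6, against 1.19, 0.857 and 1.22 CPM in S1, S2 and S3. S6 was below both S4 and S5 in 247 of 247. All 3 libraries of 6-11 hr were above every 0-5 hr library in 244. This order was found in 32.7% of all gene models tested and is favored by a call on these same libraries.

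The largest increase was TC005375, the homolog of the fly gene *Larval serum protein 2*, which encodes a storage protein of the larval hemolymph. It was at 78.4, 82.6 and 6.79 CPM in S4, S5 and S6, against 0, 0.0295 and 0.0285 CPM in S1, S2 and S3 (log2 fold change 5.19, SE 0.78, limma adjusted p = 0.000375). In reads these are 2247, 2450 and 146 at 6-11 hr, against 0, 1 and 1 at 0-5 hr. The pooled ratio of 3085 has a 95% interval of 854 to 25482, which covers counting error only. Adult group means of this gene ran from 0.853 CPM in ovary to 5.07 CPM in female carcass. A transcript almost without reads at 0-5 hr was thus present in every 6-11 hr library, at a much lower level in S6.

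TC014688 was at 55.0, 68.0 and 5.58 CPM in S4, S5 and S6, against 0.397, 0.207 and 0.228 CPM in S1, S2 and S3 (log2 fold change 4.53, SE 0.59, limma adjusted p = 9.75e-05). TC011658 was at 74.7, 76.9 and 7.67 CPM in S4, S5 and S6, against 1.47, 1.68 and 1.31 CPM in S1, S2 and S3 (3.90, SE 0.59, limma adjusted p = 0.000321). No adult group mean of these 2 genes exceeded 2.36 CPM. TC033670 was at 16.1, 19.0 and 9.99 CPM in S4, S5 and S6, against 0.214, 0.266 and 0.0854 CPM in S1, S2 and S3 (3.71, SE 0.24, limma adjusted p = 3.3e-07), and its adult means were at most 0.672 CPM. Of the increases named here it was the one in which S6 came closest to S4 and S5. TC006664 was at 144.5, 158.4 and 16.4 CPM in S4, S5 and S6, against 2.44, 3.31 and 2.08 CPM in S1, S2 and S3 (4.37, limma adjusted p = 0.000245). It was expressed in all adult groups, with means of 87.3 CPM in ovary to 758 CPM in testis. TC012717, at 38.3, 36.5 and 3.67 CPM in S4, S5 and S6, against 0.428, 0.384 and 0.655 CPM in S1, S2 and S3, was highest among adults in female carcass, at 85.4 CPM (3.68, limma adjusted p = 0.00147).

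In TC033528 and TC030701, also among the 12 largest increases, S2 was more than 2-fold above S1 and S3 in CPM. TC033528 was at 78.7, 76.2 and 8.23 CPM in S4, S5 and S6, against 1.71, 3.69 and 1.57 CPM in S1, S2 and S3 (log2 fold change 3.59, limma adjusted p = 0.00108). TC030701 was at 374, 363 and 37.8 CPM in S4, S5 and S6, against 11.8, 44.7 and 8.54 CPM in S1, S2 and S3 (3.30, limma adjusted p = 0.00576). For TC030701 the groups overlapped, S6 being below S2, and its call held in 2 of the 6 fits that leave out 1 embryo library. Both genes were highest among adults in female carcass, at 783 and 9274 CPM. Whether adult RNA had a part in their embryo levels was not tested.

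In 4 other genes of the 12 S2 was instead more than 2-fold below S1 and S3 in CPM. TC003085 was at 48.8, 53.4 and 8.88 CPM in S4, S5 and S6, against 1.13, 0 and 1.25 CPM in S1, S2 and S3 (log2 fold change 4.15, limma adjusted p = 0.000244). TC034894 was at 27.3, 28.3 and 10.04 CPM in S4, S5 and S6, against 0.733, 0.0591 and 0.826 CPM in S1, S2 and S3 (3.81, limma adjusted p = 2.22e-06). TC007675 was at 19.3, 20.6 and 8.88 CPM in S4, S5 and S6, against 0.825, 0.0295 and 0.769 CPM in S1, S2 and S3 (3.45, limma adjusted p = 1.11e-06). These genes thus ordered the libraries alike, S4 and S5 highest, S6 next, S1 and S3 lower and S2 lowest. TC008680 followed the same order, at 62.4, 66.4 and 25.1 CPM in S4, S5 and S6, against 6.23, 0.886 and 5.50 CPM in S1, S2 and S3 (3.43, limma adjusted p = 0.000286).

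Each 6-11 hr library was then set alone against the 3 libraries of 0-5 hr, in fits where the single library is assumed to vary like the other groups. S4 alone gave 452 gene models higher (3.72% of those tested) and 148 lower (1.22%). S5 alone gave 443 higher (3.65%) and 155 lower (1.28%). S6 alone gave 17 higher (0.14%) and 329 lower (2.71%). In S4 and S5 increases outnumbered decreases, and in S6 decreases outnumbered increases. The 3 fits share the 0-5 hr libraries and are given side by side. Without a test the same split was seen, with 973, 1004 and 67 gene models at least 2-fold above the 0-5 hr mean in S4, S5 and S6, and 221, 236 and 502 at least 2-fold below it. The median difference from the 0-5 hr mean over all gene models was 0.13, 0.14 and 0.10 on the log2 scale in S4, S5 and S6, so the 3 libraries were centered alike.

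The count of increases therefore depended on S6. Without S6, 781 gene models were higher (6.43%) and 195 were lower (1.6%). Without any other of the embryo libraries, the number higher was 70 (without S5) to 117 (without S2) and the number lower stayed between the 195 without S6 and 277. With the quasi-likelihood test and all libraries, 754 were higher (6.2%) and 281 lower (2.31%). At an unadjusted p under 0.05 from limma, 2735 were higher and 1374 lower.

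To place each library on genes chosen without it, its change from the 0-5 hr mean was divided by the mean change of the other 2 libraries of 6-11 hr. Those 2 libraries both choose the genes and set the divisor, which favors a smaller change in the library placed. Over the 781 gene models called higher without S6, S6 had a median of 20.5% of the change in S4 and S5 (middle 50% of genes 7.51% to 34.8%). The median log2 difference from the 0-5 hr mean was 0.36 in S6 and 1.59 in S4 and S5, and S6 was at least 2-fold up in 62 of the 781 (7.94%). S6 was above every 0-5 hr library in 556 of them (71.2%), against 48.3% of all gene models tested, and the 781 were called against these same 0-5 hr libraries. Over the 195 gene models called lower without S6, S6 had a median of 119.7% of the change in S4 and S5 (103.8% to 136.2%). It was below every 0-5 hr library in 195 of 195, at least 2-fold down in 175 (89.7%), and as far down as S4 and S5 or further in 156 (80%). S6 thus lay near the 0-5 hr libraries for the increases and beyond S4 and S5 for the decreases.

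Placed in the same way, S4 and S5 stood at 130% and 131% for the increases and 84.7% and 85.3% for the decreases. Their comparison includes S6, which sets values over 100% for increases and under 100% for decreases. The gene models behind them are fewer, 71 for S4 and 70 for S5 on the side of the increases, because the call then had to pass with S6 and 1 other library.

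**Figure D3:**
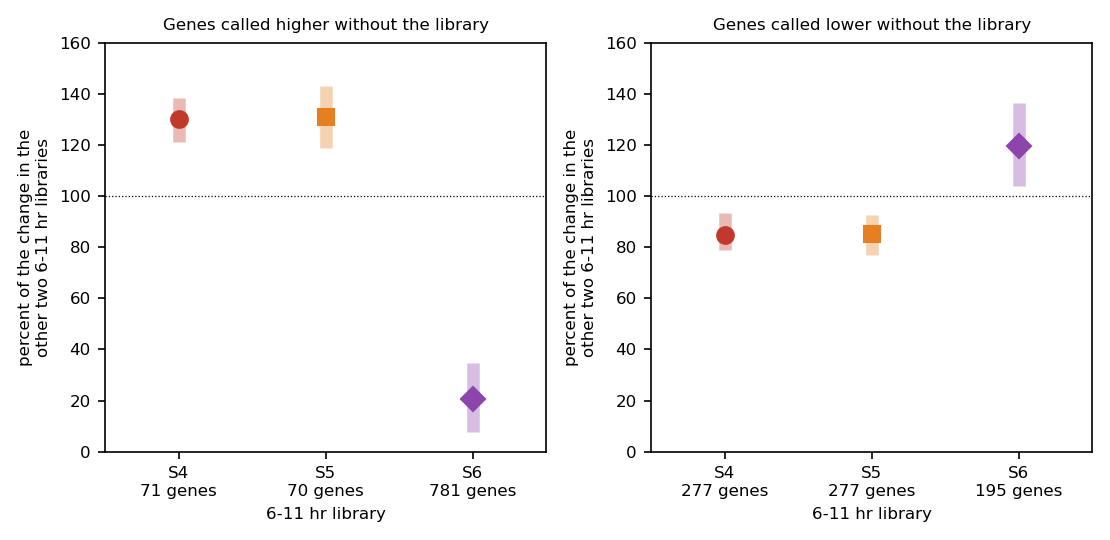
The change of each 6-11 hr library from the 0-5 hr mean, as a percent of the mean change in the other two 6-11 hr libraries, for gene models called higher (left) and lower (right) in the fit without that library. Points are medians over the gene models, bars the middle 50% of them and the dotted line 100%. S6 lies at 20.5% for the increases and 119.7% for the decreases.

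Detection gave the same split. Of the 4011 gene models under 5 CPM in every 0-5 hr library, 493, 504 and 120 reached 5 CPM in S4, S5 and S6. S4 and S5 shared 450 of these, and 92 reached 5 CPM in all 3 libraries of 6-11 hr. Of 2434 gene models under 1 CPM in every 0-5 hr library, 81, 82 and 5 reached 5 CPM in S4, S5 and S6. On the other side, of the 7797 gene models at 5 CPM or more in every 0-5 hr library, 81, 65 and 118 were under 5 CPM in S4, S5 and S6.

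The 0-5 hr libraries were also unequal for the increases. On the log2(CPM + 1) scale S2 was at least 2-fold below both S1 and S3 in 43 gene models. Of these, 19 were called higher at 6-11 hr and 1 lower, beside 2.03% and 2.11% of all gene models tested. The low S2 that defines the set favors increases over decreases. This set was defined after the values had been seen and is given as a description. Among the 781 gene models called higher without S6, 27 had this pattern, with medians of 20.2, 21.2 and 8.88 CPM in S4, S5 and S6, against 4.00, 0.325 and 3.47 CPM in S1, S2 and S3. The other 754 had medians of 6.30, 6.44 and 1.53 CPM in S4, S5 and S6, against 0.947, 0.975 and 0.868 CPM in S1, S2 and S3. S6 was at least 2-fold above the 0-5 hr mean in 15 of the 27 (55.6%) and in 47 of the 754 (6.23%). A low S2 also lowers the 0-5 hr mean against which these changes are measured. S6 stood at a median of 51.3% of the change in S4 and S5 in the 27, and at 19.6% in the 754.

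**Figure D4:**
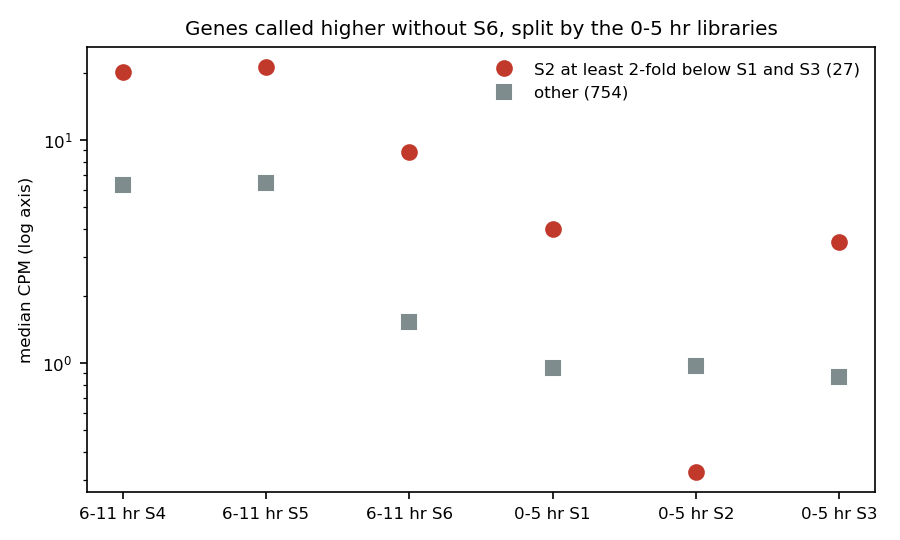
Median CPM (log axis) in each embryo library of the gene models called higher without S6, split into the 27 in which S2 was at least 2-fold below S1 and S3 (red circles) and the other 754 (grey squares). In the 27 the medians are 20.2, 21.2 and 8.88 CPM in S4, S5 and S6, against 4.00, 0.325 and 3.47 CPM in S1, S2 and S3, while in the 754 S6, at 1.53, lies near the 0-5 hr libraries.

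Of the 22 genes named by identifier in the text of the study, 2 were higher at 6-11 hr, 0 were lower and 20 were not called, where 2.03% and 2.11% of all gene models were called higher and lower. A list of zygotic genes among them was chosen by the study on these same samples, so it is not independent evidence of a direction. Of its 6 genes, TC005375 and TC015380 rose and the other 4 were not called. TC015380, the homolog of a fly early zygotic gene, was at 7.12, 8.16 and 1.39 CPM in S4, S5 and S6, against 0.183, 0.266 and 0.342 CPM in S1, S2 and S3 (log2 fold change 2.16, SE 0.42, limma adjusted p = 0.0024). Its call held in 2 of the 6 fits that leave out 1 embryo library. TC030997 was at 7.71, 6.78 and 1.53 CPM in S4, S5 and S6, against 1.22, 1.42 and 1.28 CPM in S1, S2 and S3 (1.27, limma adjusted p = 0.0156). It was called without S6 (1.84, limma adjusted p = 9.46e-06) and, with all libraries, by the quasi-likelihood test (2.03, edgeR adjusted p = 0.003), the likelihood ratio test, DESeq2 and the fit with library quality weights. S4 and S5 were both above every 0-5 hr library in 5 of the 6 genes and S6 in 3 of the 6, where 47.0% and 48.3% of all gene models tested had these orders.

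The other zygotic genes on that list were not called in any of these fits. The study reports each of them as significantly up-regulated in the later embryos, which the calls here do not show. TC008514 was at 29.6, 31.0 and 25.7 CPM in S4, S5 and S6, against 22.6, 27.7 and 23.8 CPM in S1, S2 and S3 (log2 fold change 0.21, limma adjusted p = 0.437). TC009052 was at 2.79, 4.08 and 2.79 CPM in S4, S5 and S6, against 3.33, 3.25 and 2.93 CPM in S1, S2 and S3 (0.00, limma adjusted p = 0.996). For TC009052 the sign of this difference turned with the scaling, at -0.045 with library totals alone. TC033031 had 14, 23 and 1 reads in S4, S5 and S6, against 1, 8 and 6 reads in S1, S2 and S3 (0.30, limma adjusted p = 0.531). Its log2 fold change was 1.59 to 1.60 in the count tests, with an adjusted p of 0.122 from edgeR's quasi-likelihood test, 0.0419 from its likelihood ratio test and 0.0444 from DESeq2, and it was 0.50 with an adjusted p of 0.000495 in limma with quality weights. None of these reached both limits of a call. The median log2 fold change of the 6 genes was 0.78, beside 0.14 over all gene models tested.

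The genes that the study names as maternal or patterning genes were not called, and their differences were small. TC032769 is *caudal*, a homeobox gene of the anterior-posterior axis whose product is loaded by the mother and later also made by the embryo. It was at 151, 151 and 118 CPM in S4, S5 and S6, against 129, 131 and 123 CPM in S1, S2 and S3 (log2 fold change 0.12, limma adjusted p = 0.886). TC003185 is *myd88*, an adaptor of Toll signaling, at 79.5, 77.8 and 83.4 CPM in S4, S5 and S6, against 62.6, 73.8 and 61.6 CPM in S1, S2 and S3 (0.28, limma adjusted p = 0.0862). The libraries of the 2 stages did not overlap for *myd88*, but the shift did not pass the test. TC015003, the homolog of the fly meiotic gene *mei-P26*, was at 5.69, 6.00 and 2.28 CPM in S4, S5 and S6, against 3.67, 3.37 and 2.79 CPM in S1, S2 and S3 (0.33, limma adjusted p = 0.486). TC002055, the homolog of a fly gene transcribed in oogenesis, was at 23.1, 22.6 and 34.1 CPM in S4, S5 and S6, against 26.5, 26.9 and 28.2 CPM in S1, S2 and S3 (-0.05, limma adjusted p = 0.96). The study places TC002055 in a cluster of genes that fell after the 0-5 hr stage, a fall not seen here. In *caudal* and TC015003 S6 was below every 0-5 hr library and in TC002055 above every one, with S4 and S5 on the opposite side each time.

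Among genes that the study connects with the ovary, 2 passed the p threshold and not the fold limit. TC009818 is the homolog of fly *loco*, a regulator of G protein signaling. It was at 75.05, 75.5 and 49.5 CPM in S4, S5 and S6, against 135, 120 and 140 CPM in S1, S2 and S3 (log2 fold change -0.99, SE 0.15, limma adjusted p = 0.000297). The gene was called in 3 of the 6 fits that leave out 1 embryo library. TC013108, the homolog of *quail*, which encodes a villin-like protein of fly nurse cells, was at 7.15, 6.75 and 4.65 CPM in S4, S5 and S6, against 3.12, 2.72 and 2.45 CPM in S1, S2 and S3 (0.92, limma adjusted p = 0.000695). It was called without S6 (1.08), with 0.1 added to each CPM (1.12), with quality weights (1.03) and in the 3 count tests (1.17 in each). TC034053, the homolog of a meiosis arrest female gene of the fly, was at 1101, 1065 and 850 CPM in S4, S5 and S6, against 1217, 1234 and 1299 CPM in S1, S2 and S3 (-0.32, limma adjusted p = 0.422). TC001383, whose fly homolog belongs to the anaphase promoting complex that drives exit from mitosis, was at 390, 384 and 545 CPM in S4, S5 and S6, against 484, 436 and 471 CPM in S1, S2 and S3 (-0.09, limma adjusted p = 0.9).

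None of the 4 beta-tubulin homologs, subunits of microtubules, was called, which with 2.03% and 2.11% of all gene models called says little about so few genes. TC009589 was at 1839, 1948 and 1802 CPM in S4, S5 and S6, against 1623, 1385 and 1508 CPM in S1, S2 and S3 (log2 fold change 0.31, limma adjusted p = 0.096). TC034766 was at 47.3, 48.9 and 27.4 CPM in S4, S5 and S6, against 24.8, 23.8 and 25.3 CPM in S1, S2 and S3 (0.68, limma adjusted p = 0.0348). The groups did not overlap in either gene, but the 2 are related in sequence and follow each other among the gene models, so reads may be split between them and both values are uncertain. TC009035 was at 1.71, 2.90 and 1.49 CPM in S4, S5 and S6, against 1.44, 0.916 and 1.05 CPM in S1, S2 and S3 (0.49, limma adjusted p = 0.517), and its adult mean was highest in testis. TC010829 stayed under 1 CPM in every embryo library.

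**Figure D5:**
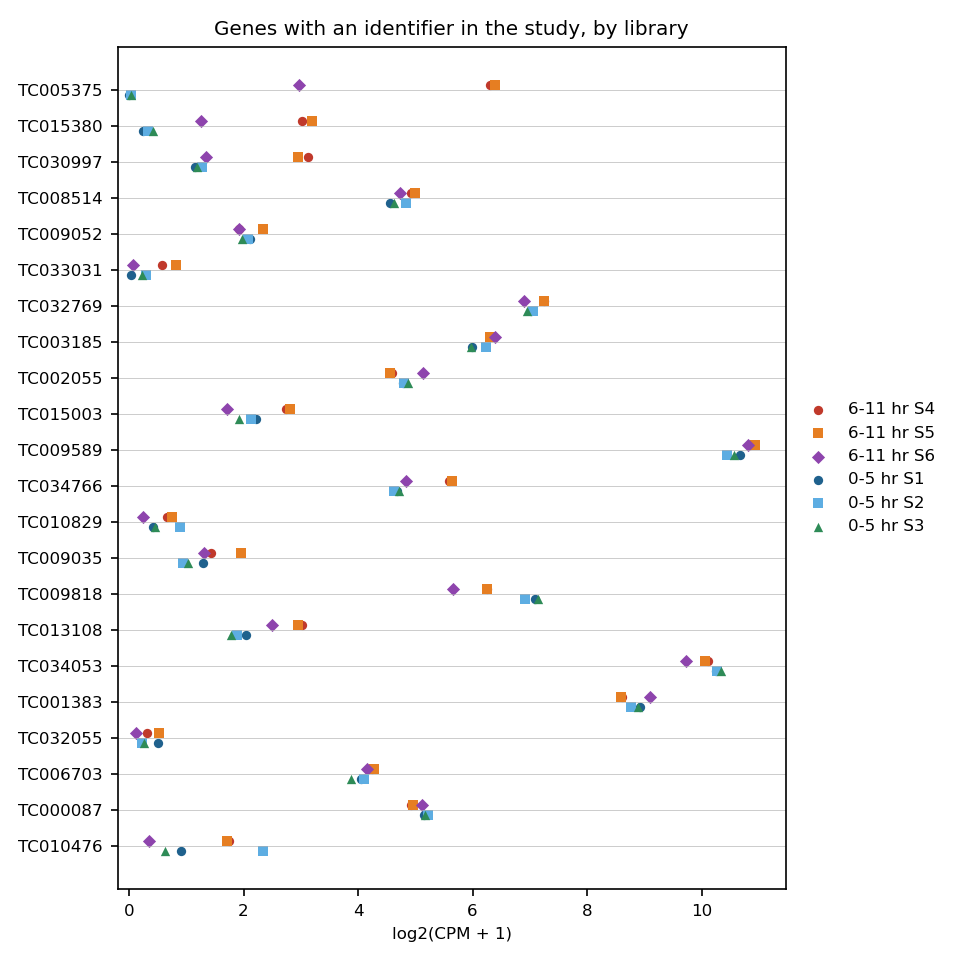
The level of the 22 genes with an identifier in the study in each embryo library, as log2(CPM + 1), with S4, S5 and S6 of 6-11 hr in red, orange and purple and S1, S2 and S3 of 0-5 hr in dark blue, light blue and green. TC005375 and TC015380 are the 2 that rose, and S6 lies between S4 and S5 and the 0-5 hr libraries in both, at 6.79 and 1.39 CPM.

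Levels in the ovary, which is outside the comparison, were used to describe which transcripts the mother could supply. Of the gene models tested, 9855 (81.1%) were at 5 CPM or more in every ovary library. They held 191 increases (1.94% of the class) and 250 decreases (2.54%). Another 192 were under 1 CPM in every ovary library, with 10 increases (5.21%) and 0 decreases. The 2105 in between held 46 increases (2.19%) and 6 decreases (0.285%). Over all gene models tested these shares were 2.03% and 2.11%. The share of the decreases that was high in ovary was that of their 0-5 hr level. At 5 CPM or more in every 0-5 hr library, 97.6% of the 253 decreases and 98.3% of all 7797 gene models were high in ovary. Among gene models under 5 CPM in every 0-5 hr library, 73.2% of the 209 increases were high in ovary, against 48.8% of all 4011. Within this limit the 209 had a median 0-5 hr mean of 0.804 CPM and all 4011 one of 0.472 CPM. Over all levels, 77.3% of the increases and 81.1% of all gene models tested were high in ovary.

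The increases were most often highest, among adult groups, in female carcass. This held for 144 of the 247 (58.3%), against 28.1% of all gene models tested. Among gene models under 5 CPM in every 0-5 hr library, female carcass was highest for 118 of the 209 increases (56.5%) and for 37.1% of all 4011. These sets share a limit and are not matched in level within it. Male carcass was highest for 9.09% of the 209 and 23.9% of the 4011, ovary for 18.2% and 12.8%, and testis for 16.3% and 26.2%. A gene model low in embryos is in the table only if it reached the minimum in other samples, so these shares describe genes that adults express. In 24 of the increases (9.72%) no adult group mean was above the 6-11 hr mean, against 29.3% of all gene models tested. These 2 shares are not at a like level, since the median 0-5 hr mean was 1.16 CPM in the increases and 26.3 CPM over all tested. For the decreases at 5 CPM or more, female carcass was highest for 20.9% of 253 and for 22.9% of all 7797.

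Adult tissue in an egg collection would bring transcripts of its own, so markers of adult groups were read in each embryo library. The 3 testis markers TC032055, TC006703 and TC009035 summed to 19.9, 21.8 and 18.4 CPM in S4, S5 and S6, against 17.4, 17.2 and 14.98 CPM in S1, S2 and S3, and to 6489 CPM in testis. TC006703 made up most of these embryo sums, at 13.7 to 18.5 CPM per embryo library. Its means were 932 CPM in testis, 41.3 CPM in male carcass and 11.3 CPM in ovary, so it does not mark testis alone. The 3 genes that the study connects with the ovary, TC009818, TC013108 and TC034053, summed to 1184, 1147 and 905 CPM in S4, S5 and S6, against 1355, 1357 and 1441 CPM in S1, S2 and S3, and to 617 CPM in ovary. They do not mark ovary in these data, since the embryo sums exceed the ovary sum and TC009818 and TC013108 had higher means in female carcass (197 and 60.5 CPM) than in ovary (89.8 and 28.1 CPM). The 2 carcass markers were the homologs of *henna*, an enzyme of eye pigment synthesis, and of flightin, a flight muscle protein. They summed to 31.7, 32.3 and 33.8 CPM in S4, S5 and S6, against 35.3, 40.5 and 35.4 CPM in S1, S2 and S3. In female carcass they summed to 1058 CPM. Most of the embryo sums came from the *henna* homolog TC000087, at 29.3 to 36.4 CPM per embryo library. Its means were 24.1 CPM in ovary and 42.1 CPM in testis, so it does not mark carcass alone. None of these 8 genes was called, beside 2.03% and 2.11% of all gene models called higher and lower. The flightin homolog TC010476 was at 2.34, 2.29 and 0.279 CPM in S4, S5 and S6, against 0.886, 4.05 and 0.541 CPM in S1, S2 and S3, and at 802 CPM in female carcass.

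A wider set of 155 gene models, with a female carcass mean of 500 CPM or more and a 0-5 hr mean under 30 CPM, was chosen after the values had been seen. It summed to 3594, 3765 and 822 CPM in S4, S5 and S6, against 757, 1732 and 659 CPM in S1, S2 and S3, and to 321664 CPM in female carcass. S4, S5 and, at 0-5 hr, S2 were therefore higher in carcass-rich transcripts than S6, S1 and S3. Of the 155, 15 (9.68%) were called higher, against 3.92% of all gene models with a 0-5 hr mean under 30 CPM and 2.03% of all tested. None was called lower, against 2.11% of all tested, and the limit of 30 CPM leaves little room for decreases. The part of these transcripts in the increases, or in the difference of S6 from S4 and S5, was not tested.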

How the data were processed

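Poly(A) RNA of 17 libraries in 6 groups was sequenced, and this comparison used the 3 libraries of 6-11 hr and the 3 of 0-5 hr as groups, with the other 11 in the fit. The authors mapped reads to the Tcas5.2 assembly (HISAT2 2.0.5), obtained counts with BEDTools and normalized the libraries in edgeR (trimmed mean of M-values, TMM). The deposited signal values are these TMM normalized CPM of 12302 gene models. Dividing by the value of 1 read gave whole reads, within 0.01 read, for 100% of 209134 values.

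Gene models with 3 or more libraries at 5 CPM or above were tested with limma 3.58.1 (trended, robust variance) on log2(CPM + 1) in R 4.3.3, in one model of 6 group means without covariates. The fold changes are on that scale, which understates changes of low genes. Calls needed a 2-fold change and a Benjamini-Hochberg adjusted p under 0.01 over the 12152 gene models. Each 6-11 hr library was also fitted alone. The methods were also run on simulated reads, in which only gene models with a 0-5 hr mean of 5 CPM or more were changed. Of the 247 increases, 30 lie at that level, so the simulation does not cover most of them. Recovered reads were used for edgeR 4.0.16 and DESeq2 1.42.0 as alternatives, beside other scalings, filters, thresholds, pseudocounts and library sets. Tables and figures used Python 3.11.15, pandas 2.3.3, numpy 2.4.6 and matplotlib 3.10.9.

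Genes named are all 22 with an identifier in the study and the 12 largest called changes each way, and a gene outside this rule is marked as chosen after its values were seen. The comparison, the gene lists and the alternatives were chosen with earlier results of these data known. Of 12282 TC identifiers, 13 stand on 2 gene models each, and 7 gene models have none. Only 1 identifier matched the reference table (icTriCast1.1, 15518 genes), so symbols beyond those in the study, sequences, positions and promoter motifs were not analysed here. Strand of the counting is not given in the sources used here, so reads of overlapping or antisense gene models cannot be told apart.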

Additional observations from a re-analysis of the deposited data

How the results depend on the processing

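The 247 increases became 754 with edgeR's quasi-likelihood test, 1184 with its likelihood ratio test, 1173 with DESeq2, 963 with library quality weights (a fit that did not fully converge), 598 with 0.1 and 74 with 5 added to each CPM, 89 with 5 CPM required in 3 embryo libraries, 63 with the embryo libraries alone, 81 at a log2 threshold of 2, 567 with no fold threshold and 474 at an adjusted p of 0.05. Leaving out 1 embryo library gave 70 to 781, the highest without S6. The 256 decreases became 10 at a log2 threshold of 2 and 722 with no fold threshold, and stayed within 1.5 times under every other alternative run, with 195 to 277 when 1 library was left out.

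By ovary class, the quasi-likelihood test gave 514 increases in the class at 5 CPM or more (main 191, leave-one-out 46 to 608) and 228 increases and 12 decreases in the class between (main 46 and 6, leave-one-out 15 to 161 increases). Limits of 10 and 2 CPM gave 16 increases in the class low in ovary (main 10), and 93 increases and 16 decreases in the class between.

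The median place of S6 ran from 17.6% to 26.1% for increases and from 111.0% to 121.1% for decreases over the alternatives. Of the named genes, the 12 largest decreases kept their calls under every alternative at the 2-fold limit (10 of them reach the log2 threshold of 2), and 4 of the 12 largest increases lost theirs with the embryo libraries alone. Signs turned only in genes that were not called. TC002055 had 0.03 without S4 and 0.046 without S5 (leave-one-out -0.24 to 0.046). TC009052 had -0.045 with library totals, -0.11 with quality weights and -0.14 to 0.075 when 1 library was left out. TC010476 had 0.79 with quality weights and -0.35 to 0.50 in leave-one-out, and TC010829 had 0.23 and -0.13 to 0.12. TC032055 had 0.032 with the quasi-likelihood test and -0.12 to 0.083 in leave-one-out.

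No paired analysis was possible because the libraries of the 2 stages share no replicate number. With 3 libraries per stage and 1 of them apart in each, the spread behind each test rests on few samples. A gene model under 1 CPM rests on few reads, and the table holds only gene models that reached the minimum in some samples.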

Other observations

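Single libraries held gene models that were at least 2-fold from all 5 other embryo libraries on log2(CPM + 1), and the genes named here were chosen after their values were seen. S5 was above all others in 14, of which 10 had their highest adult mean in ovary, against 25.6% of all gene models tested. TC031953 was at 113, 644 and 82.6 CPM in S4, S5 and S6, against 199, 50.2 and 57.9 CPM in S1, S2 and S3, and at 1400 CPM in ovary. The neighboring gene model TC004339 was at 78.7, 260 and 40.2 CPM in S4, S5 and S6, against 87.0, 25.6 and 35.5 CPM in S1, S2 and S3, and at 622 CPM in ovary. S1 was the highest 0-5 hr library in both genes.

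S2 was above all others in 31 gene models. Each of these had its highest adult mean in female (21) or male (10) carcass, against 28.1% and 12.8% of all gene models tested. TC007689 was at 8.90, 11.7 and 3.49 CPM in S4, S5 and S6, against 9.29, 43.7 and 6.04 CPM in S1, S2 and S3, and at 10353 CPM in female carcass. S2 was below all others in 34 gene models, with medians of 18.8, 19.3 and 8.48 CPM in S4, S5 and S6, against 4.05, 0.325 and 3.76 CPM in S1, S2 and S3. One of them, TC013428, was at 38.0, 38.3 and 14.5 CPM in S4, S5 and S6, against 4.43, 0.0295 and 4.58 CPM in S1, S2 and S3, and at most 0.603 CPM in any adult group mean. TC004340, the gene model next to TC004339, was at 42.2, 43.0 and 12.6 CPM in S4, S5 and S6, against 10.5, 0.177 and 10.02 CPM in S1, S2 and S3.

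S1 was above all others in 7 gene models, 6 of them highest in testis, against 33.5% of all gene models tested. TC030334, TC031988 and TC031989 were each at 9.08 to 9.11 CPM in S1, and their values in the other embryo libraries were nearly the same as well, and these gene models are neighbors. S6 was below all others in 14 gene models, for example TC012819, at 12.2, 12.1 and 2.79 CPM in S4, S5 and S6, against 11.8, 11.4 and 11.7 CPM in S1, S2 and S3.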
